A study of Drosophila melanogaster with 8 samples.

Results

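Described here are 8 transcripts of fly blood cells and of the melanization response, PPO1, PPO2, Hml, NimC1, eater, Pxn, Sr-CI and vkg, in heads of Drosophila melanogaster in which the chromatin factor gene row was knocked down. They were taken by symbol from a table of 13781 gene symbols, and all 8 were present and passed the low-count filter that left 9442 genes for testing. The libraries came from heads of Actin-gal4/+; UAS-rowRNAi1/+ flies (row_RNAi1, 2 libraries), Actin-gal4/+; UAS-rowRNAi2/+ flies (row_RNAi2, 3 libraries) and Actin-gal4/+ flies (control, 3 libraries). All groups thus carried Actin-gal4, in which a ubiquitously active promoter drives the yeast activator Gal4, and the RNAi groups also carried a Gal4-dependent RNAi transgene against row. No UAS transgene is named for the control, so genetic background and knockdown cannot be told apart within 1 line. All flies were kept at 25 °C with 12 hours of light and 12 hours of dark, and recovered for 3 days after CO2. The labels state neither age nor sex. They also do not say if the libraries of 1 group are different pools of flies, so p-values measure only the spread between these libraries, which may be technical.

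Fly blood cells, or hemocytes, comprise plasmatocytes, which engulf microbes and cell debris and lay down extracellular matrix, crystal cells, which store the enzymes of melanization, and lamellocytes, which appear mainly in larvae after parasitization. In melanization a chain of serine proteases cuts prophenoloxidases into active phenoloxidases. These oxidize catechols to quinones, which polymerize into melanin at wounds and around invaders. PPO1 and PPO2 encode the prophenoloxidases of crystal cells. Hml encodes the clotting protein Hemolectin, NimC1, eater and Sr-CI encode phagocytic receptors of plasmatocytes, Pxn encodes the matrix peroxidase Peroxidasin, and vkg encodes a chain of type IV collagen, which fat body also makes.

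The 2 row_RNAi1 libraries held 17952015 and 18046699 counts, the row_RNAi2 libraries 6230666 to 11212213, and the control libraries 7015874 to 9437287, so depth went with the line and its part in the results was not tested. Levels are given as CPM, counts relative to the library total after TMM scaling (trimmed mean of M values). The target gene row stood at 5.93 and 4.22 CPM in row_RNAi1, at 8.04, 5.97 and 8.28 CPM in row_RNAi2, and at 14.3, 14.9 and 12.1 CPM in controls. All 5 knockdown libraries lay below all 3 controls (exact two-sided permutation test, p = 0.0179, the smallest of 56 arrangements). The head label was matched by ninaE, the main rhodopsin gene of the eye, at 8297, 8524 and 9257 CPM on average in row_RNAi1, row_RNAi2 and controls. The member genes had at least 41 counts in every library. In bulk heads, fewer cells of a type and less RNA per cell cannot be told apart.

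The members did not move as 1 group. The prophenoloxidase genes fell in both lines, while the plasmatocyte genes differed among themselves and between the lines. In row_RNAi1, 5 of 8 members were called, with PPO1 and PPO2 lower and Hml, NimC1 and Sr-CI higher. A call means that the quasi-likelihood F test of edgeR gave a p under 0.05 after Benjamini-Hochberg adjustment over all tested genes, and 21.2% of tested genes were called in row_RNAi1, 11.2% higher and 10.0% lower. Every edgeR adjusted p below is of this kind. In row_RNAi2, 4 of 8 members were called, PPO1, PPO2, Hml and Pxn, all lower, where 10.8% of tested genes were called and 5.34% were called lower. The median log2 fold change of the members was 0.02 in row_RNAi1 and -0.27 in row_RNAi2, against -0.01 for all tested genes in both. The 3 control libraries served for both lines, so the comparisons are not independent of each other. Over the mean of both lines 4 of 8 members were called, Sr-CI higher and PPO1, PPO2 and Pxn lower, where 17.8% of tested genes were called, 9.24% higher and 8.56% lower. The calls of Sr-CI and Pxn over the mean were lost with the 5 knockdown libraries taken as 1 group, and without row_RNAi1 replicate 1 or 2 or control replicate 1 or 2, which each left 2 called members. In all, the call of Pxn over the mean was lost in 11 of 15 alternatives.

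**Figure D1:**
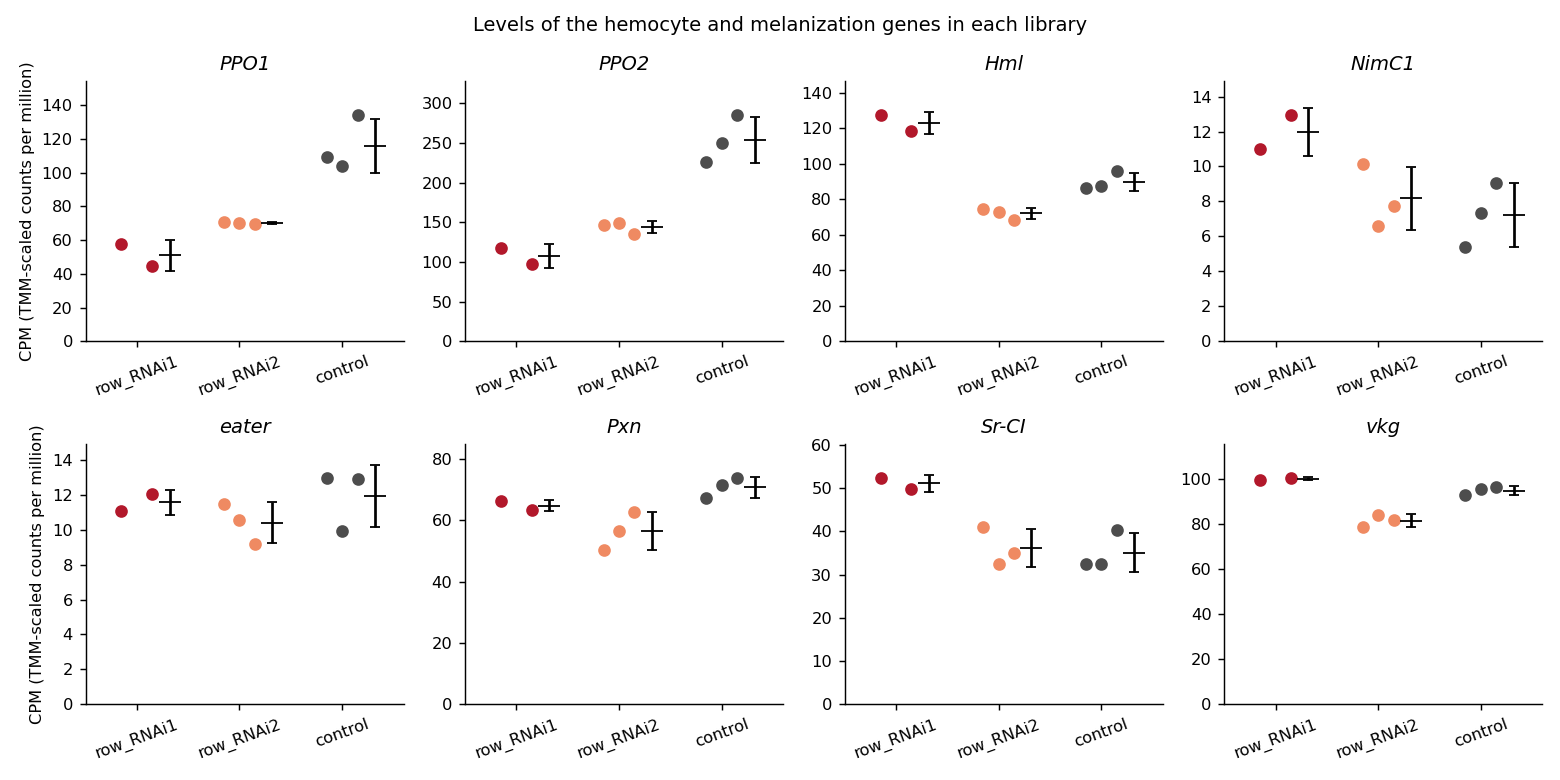
Levels of the 8 genes in each library, in TMM-scaled CPM, with 1 panel per gene and its own vertical axis from 0. Points are libraries and the black marks are group means with SD (2 row_RNAi1, 3 row_RNAi2 and 3 control libraries). PPO1 and PPO2 are lower in all 5 knockdown libraries, and Hml lies above controls in row_RNAi1 and below them in row_RNAi2.

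PPO1 had 57.6 and 44.4 CPM in row_RNAi1, 70.9, 69.9 and 69.4 CPM in row_RNAi2, and 109, 104 and 134 CPM in controls. No knockdown library reached the lowest control, and the row_RNAi1 libraries were the lowest of all. Group means were 51.0 ± 9.29 CPM in row_RNAi1 (SD, n = 2), 70.0 ± 0.734 CPM in row_RNAi2 (SD, n = 3) and 116 ± 16.1 CPM in controls (SD, n = 3), which puts the lines at 44.1% and 60.5% of the control mean. The log2 fold change was -1.18 (SE 0.12, edgeR adjusted p = 7.57e-07) in row_RNAi1. In row_RNAi2 it was -0.73 (SE 0.10, edgeR adjusted p = 0.000104).

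PPO2 had 118 and 97.0 CPM in row_RNAi1, 147, 149.8 and 136 CPM in row_RNAi2, and 227, 249.6 and 285 CPM in controls. The groups were again fully apart, in the same order as for PPO1. Means were 107 ± 14.7 CPM in row_RNAi1 (SD, n = 2), 144 ± 7.37 CPM in row_RNAi2 (SD, n = 3) and 254 ± 29.6 CPM in controls (SD, n = 3). The row_RNAi1 mean was thus 42.3%, and the row_RNAi2 mean 56.8%, of that in controls. PPO2 fell by 1.24 on the log2 scale in row_RNAi1 (SE 0.11, edgeR adjusted p = 1.13e-07) and by 0.82 in row_RNAi2 (SE 0.09, edgeR adjusted p = 8.14e-06). Of all tested genes, 17.2% had no overlap between the 5 knockdown and the 3 control libraries, and 8.29% had all knockdown libraries below the controls, as PPO1, PPO2 and Pxn had. Leaving out any 1 library kept both prophenoloxidase genes lower and called in each line.

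Both prophenoloxidase genes fell, and their counts stayed in a ratio of 1.96 to 2.40 over the 8 libraries. The count of PPO2 over that of PPO1 in the same library was 2.05 and 2.18 in row_RNAi1, 2.08, 2.14 and 1.96 in row_RNAi2, and 2.07, 2.40 and 2.13 in controls. The 3 groups overlapped in this ratio, and its 95% exact binomial counting interval was 1.89 to 2.21 in row_RNAi1 replicate 1 and 2.23 to 2.59 in control replicate 2, the highest library. Such intervals cover counting error only, and the ratio is of reads near the 3′ ends and not of molecules. In the plot of the 2 genes against each other the points lie along 1 line. PPO1 and PPO2 are paralogs, and reads shared between them were not examined.

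**Figure D2:**
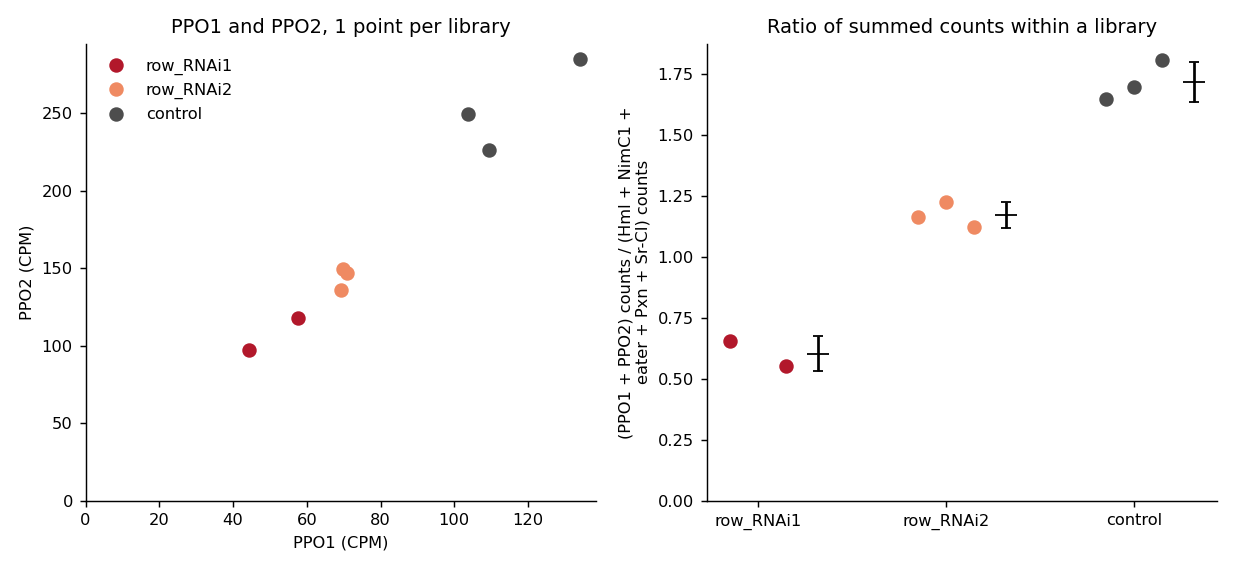
Left, PPO2 against PPO1 in each library (CPM, 1 point per library); right, summed counts of PPO1 and PPO2 over summed counts of Hml, NimC1, eater, Pxn and Sr-CI in each library, with mean and SD. The row_RNAi1 libraries sit lowest in both panels and the controls highest, with ratios of 0.603, 1.17 and 1.72 on average in row_RNAi1, row_RNAi2 and controls.

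Set against the plasmatocyte genes of the same library, the prophenoloxidases were also lower. The summed counts of PPO1 and PPO2 over those of Hml, NimC1, eater, Pxn and Sr-CI came to 0.654 and 0.551 in row_RNAi1, 1.16, 1.23 and 1.12 in row_RNAi2, and 1.64, 1.69 and 1.81 in controls. The groups did not overlap in this ratio, which needs no scaling between libraries and is given as a description. Its means were 0.603 ± 0.0728 in row_RNAi1 (SD, n = 2), 1.17 ± 0.0533 in row_RNAi2 (SD, n = 3) and 1.72 ± 0.0835 in controls (SD, n = 3). The plasmatocyte part was not constant. In row_RNAi1 Hml, NimC1 and Sr-CI stood at 137%, 165% and 146% of their control means, and eater and Pxn at 96.8% and 91.5%. The ratio in row_RNAi1 thus holds a rise of plasmatocyte genes as well as the fall of PPO1 and PPO2. In row_RNAi2 Hml, eater and Pxn stood at 80.1%, 87.1% and 79.8%, and NimC1 and Sr-CI at 113% and 103%.

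Of 5 tested crystal cell markers, PPO1 and PPO2 were the 2 called in each line, and lz, peb and Mlf were not called. PPO1 and PPO2 are also the members on this list. Over all tested genes 10.0% were called lower in row_RNAi1 and 5.34% in row_RNAi2. The gene lz encodes the Runx factor that sets crystal cell fate, and had 4.298 and 3.525 CPM in row_RNAi1, 4.26, 4.43 and 5.07 CPM in row_RNAi2, and 4.99, 4.55 and 4.58 CPM in controls. For lz, row_RNAi1 gave -0.26 (SE 0.22, edgeR adjusted p = 0.455) and row_RNAi2 gave -0.02 (SE 0.21, edgeR adjusted p = 0.978) on the log2 scale. With 26 to 71 counts per library, lz was measured much less precisely than the prophenoloxidase genes, and lz and peb are also active outside blood. The zinc-finger gene peb had 0.04 and 0.15 in row_RNAi1 and row_RNAi2 on the log2 scale, neither called. Mlf, which encodes a partner of the Runx factor, had -0.17 and -0.16 (SE 0.08 each, edgeR adjusted p = 0.167 and 0.234). Mlf had 61.1 and 57.2 CPM in row_RNAi1, 62.5, 57.1 and 59.5 CPM in row_RNAi2, and 70.5, 66.2 and 63.2 CPM in controls. All 5 knockdown libraries thus lay below all 3 controls, as in 8.29% of tested genes. At an unadjusted p under 0.05, 2 of the 5 markers passed in row_RNAi1 and 3 in row_RNAi2.

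Lamellocyte markers showed no call. The lamellocyte prophenoloxidase gene PPO3 had 3 and 1 counts in row_RNAi1, 0, 0 and 1 in row_RNAi2, and 1, 2 and 2 in controls. It stayed at or under the floor of 3 counts in every library, was not tested, and no fold change is given. Among the 4 tested lamellocyte markers (atilla, mys, msn and cher) edgeR called 0 in either line, and so did DESeq2 and limma voom, with 0 at an unadjusted p under 0.05. Over all tested genes 21.2% were called in row_RNAi1 and 10.8% in row_RNAi2, and 4 genes are too few to set 0 calls apart from these shares. These genes are also used by other tissues.

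Genes that control melanization were called higher or not at all. Of 13 tested genes of the cascade, 4 were called higher and 2 lower in row_RNAi1, and 2 higher and 2 lower in row_RNAi2, the lower ones being PPO1 and PPO2. The share of tested genes called higher was 11.2% in row_RNAi1 and 5.49% in row_RNAi2, and the list's median log2 fold change was 0.16 and 0.03. Spn27A, a serpin that inhibits the protease cutting prophenoloxidase, had 123 and 120.1 CPM in row_RNAi1, 100.2, 99.9 and 91.8 CPM in row_RNAi2, and 77.2, 67.1 and 73.4 CPM in controls. Every knockdown library was above every control. Spn27A rose by 0.74 on the log2 scale in row_RNAi1 (SE 0.08, edgeR adjusted p = 2.99e-06) and by 0.42 in row_RNAi2 (SE 0.08, edgeR adjusted p = 0.00108). It overlaps the genes cup and CG34310 on the other strand, and whether counting used strand is not stated.

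The proteases upstream showed smaller rises. The protease gene grass, which acts ahead of Toll, rose by 0.49 in row_RNAi1 and by 0.34 in row_RNAi2 (SE 0.07 each, edgeR adjusted p = 7.94e-05 and 0.00353). Its level was 50.8 ± 1.51 CPM in row_RNAi1 (SD, n = 2), 45.6 ± 1.52 CPM in row_RNAi2 (SD, n = 3) and 36.1 ± 0.636 CPM in controls (SD, n = 3). The protease genes Hayan and psh rose in row_RNAi1 by 0.42 and 0.40, and had 0.26 and 0.18 in row_RNAi2, where neither was called (edgeR adjusted p = 0.101 and 0.292). Both lost their calls in row_RNAi1 without row_RNAi1 replicate 1. The other 7 tested genes, Sp7, MP1, modSP, Spn28Dc, Spn77Ba, yellow-f and yellow-f2, were called in neither line.

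Several enzymes that make or use catechols were lower. Of 11 tested catecholamine and cuticle pigment genes, 4 were called lower and 1 higher in row_RNAi1, and 3 lower in row_RNAi2, where 10.0% and 5.34% of tested genes were called lower. Ddc, the dopa decarboxylase gene, had 34.0 ± 0.639 CPM in row_RNAi1 (SD, n = 2), 39.6 ± 2.83 CPM in row_RNAi2 (SD, n = 3) and 50.6 ± 3.75 CPM in controls (SD, n = 3). It fell by 0.57 and 0.35 on the log2 scale in row_RNAi1 and row_RNAi2 (edgeR adjusted p = 7.75e-05 and 0.00645). The cuticle phenoloxidase gene laccase2 (current symbol stw) had 5.21 and 7.28 CPM in row_RNAi1, 5.90, 4.53 and 6.67 CPM in row_RNAi2, and 10.8, 11.3 and 9.15 CPM in controls, with no overlap of knockdown and control libraries. It fell by 0.73 and 0.87 (SE 0.19 each, edgeR adjusted p = 0.0113 and 0.00545). Dat, an arylalkylamine N-acetyltransferase gene, fell by 0.58 and 0.27, and the tyrosine hydroxylase gene ple had -0.38 and -0.22, called in row_RNAi1. Without row_RNAi1 replicate 1, 3 of the list were called in row_RNAi1, Ddc, Dat and y, and Dat lost its call in row_RNAi2 without row_RNAi2 replicate 1 or 2 or control replicate 1 or 2. The pigment gene y, named after its value was seen, was higher in row_RNAi1 by 2.17 on the log2 scale and had -0.14 in row_RNAi2. Its counts were few, 81 and 82 in row_RNAi1, 10, 10 and 7 in row_RNAi2, and 7, 14 and 7 in controls. These enzymes also serve neurons and cuticle. Of 5 neuronal markers edgeR called 0 in row_RNAi1, with 2 at an unadjusted p under 0.05, 1 called by DESeq2 and 2 by limma voom, and 0 by every one of these measures in row_RNAi2.

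Hml was the 1 member called in opposite directions in the lines. It had 128 and 118 CPM in row_RNAi1, 74.5, 73.1 and 68.6 CPM in row_RNAi2, and 86.4, 87.5 and 95.9 CPM in controls. Both row_RNAi1 libraries lay above all controls, and all 3 row_RNAi2 libraries lay below them. Hml rose by 0.45 on the log2 scale (SE 0.08, edgeR adjusted p = 0.000508) in row_RNAi1. It fell by 0.32 (SE 0.08, edgeR adjusted p = 0.00903) in row_RNAi2. Set directly against each other, row_RNAi2 stood at 72.1 ± 3.06 CPM (SD, n = 3) and row_RNAi1 at 123 ± 6.43 CPM (SD, n = 2), a difference of -0.77 (SE 0.08, edgeR adjusted p = 4.73e-06). Averaged over the lines the change was 0.06 and was not called. Counts of Hml over those of Pxn in the same library were 1.93 and 1.87 in row_RNAi1, 1.48, 1.29 and 1.09 in row_RNAi2, and 1.29, 1.23 and 1.30 in controls, so both row_RNAi1 libraries lay above all others.

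**Figure D3:**
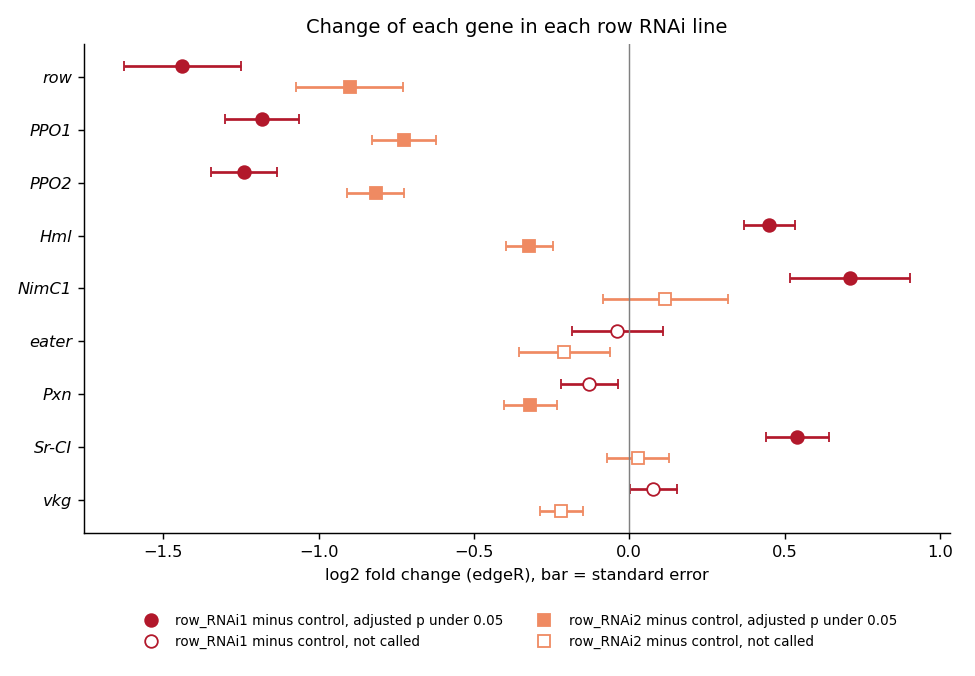
Log2 fold change of row and of the 8 genes in each RNAi line minus control, from the edgeR fit. Bars are standard errors, filled symbols have an adjusted p under 0.05 over all tested genes and open symbols do not. PPO1 and PPO2 lie left of 0 in both lines, and Hml lies at 0.45 in row_RNAi1 and -0.32 in row_RNAi2.

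Of the phagocytic receptor genes, Sr-CI and NimC1 were called higher in row_RNAi1, and eater in neither line. Sr-CI, a scavenger receptor gene, had 52.4 and 49.8 CPM in row_RNAi1, 41.0, 32.4 and 35.1 CPM in row_RNAi2, and 32.4, 32.4 and 40.3 CPM in controls. The row_RNAi1 libraries stood apart, while row_RNAi2 and control libraries overlapped. Sr-CI rose by 0.54 on the log2 scale in row_RNAi1 (SE 0.10, edgeR adjusted p = 0.00073) and had 0.03 in row_RNAi2 (SE 0.10). The direct difference between row_RNAi2 and row_RNAi1 was -0.51 (SE 0.10, edgeR adjusted p = 0.00234). Its neighbour and paralog Sr-CIII was not found among the gene symbols of the counts.

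NimC1, the Nimrod receptor known as the plasmatocyte P1 antigen, had 11.0 and 12.9 CPM in row_RNAi1, 10.2, 6.61 and 7.74 CPM in row_RNAi2, and 5.38, 7.33 and 9.04 CPM in controls. The row_RNAi1 libraries were the highest, and the other groups overlapped. NimC1 rose by 0.71 on the log2 scale (SE 0.19, edgeR adjusted p = 0.0135) in row_RNAi1 and had 0.12 (SE 0.20, edgeR adjusted p = 0.82) in row_RNAi2. The call in row_RNAi1 was lost without row_RNAi1 replicate 2 (0.59, edgeR adjusted p = 0.160) or without control replicate 1 (0.55, edgeR adjusted p = 0.0618). The difference between the lines, -0.59 as row_RNAi2 minus row_RNAi1, was not called (edgeR adjusted p = 0.0552). For NimC1 that difference was called in 6 of 15 alternatives: by limma voom (adjusted p = 0.0212), in edgeR with no low-count filter (0.00562) or with the libraries of the compared groups only (0.0334), and without row_RNAi2 replicate 1 (0.0231) or control replicate 1 (0.0384) or 3 (0.0371).

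The receptor gene eater, with EGF-like repeats as in NimC1, had 11.1 and 12.1 CPM in row_RNAi1, 11.5, 10.6 and 9.17 CPM in row_RNAi2, and 13.0, 9.92 and 12.9 CPM in controls. All 3 groups overlapped. The log2 fold changes, -0.04 in row_RNAi1 and -0.21 in row_RNAi2, each had an SE of 0.15 and were not called, so changes of that order were not detectable at 70 to 209 counts per library.

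Among 7 tested plasmatocyte markers, Hml, NimC1 and Sr-CI were called higher and NimC2 lower in row_RNAi1, and Hml, Pxn and NimC2 lower in row_RNAi2. Over all tested genes 21.2% were called in row_RNAi1 and 10.8% in row_RNAi2. With 1 library left out, 2 to 4 of the 7 were called in row_RNAi1 and 1 to 3 in row_RNAi2. NimC2 belongs to the same receptor family as NimC1 and had 1.88 and 1.73 CPM in row_RNAi1, 1.80, 1.36 and 2.22 CPM in row_RNAi2, and 3.94, 2.79 and 4.24 CPM in controls. It fell by 1.01 in both lines (SE 0.30 each, edgeR adjusted p = 0.0243 in row_RNAi1 and 0.0376 in row_RNAi2), on 11 to 38 counts per library. That call was lost in row_RNAi1 without row_RNAi1 replicate 1 or 2 or control replicate 1 or 3, and in row_RNAi2 it held only without row_RNAi2 replicate 3 or control replicate 2. The CD36-family receptor gene crq stood at 54.9, 52.9 and 54.2 CPM on average in row_RNAi1, row_RNAi2 and controls. The larval pan-hemocyte gene He was near background, with 39 counts in all 8 libraries together, and was not tested.

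Of 20 tested phagocytic receptor and opsonin genes, 7 were called higher and 2 lower in row_RNAi1, and 2 lower in row_RNAi2. Over all tested genes 11.2% were called higher and 10.0% lower in row_RNAi1 and 5.34% lower in row_RNAi2, so the share of this list called lower in row_RNAi1 was that of all genes. The list's median log2 fold change was 0.12 in row_RNAi1 and 0.07 in row_RNAi2. Tep2, which encodes a thioester protein that marks microbes, had 274 ± 16.0 CPM in row_RNAi1 (SD, n = 2), 148 ± 0.665 CPM in row_RNAi2 (SD, n = 3) and 132 ± 5.12 CPM in controls (SD, n = 3). It rose by 1.05 in row_RNAi1 (SE 0.08, edgeR adjusted p = 1.17e-08) and had 0.16 in row_RNAi2 (edgeR adjusted p = 0.174). The direct difference for Tep2 was -0.89 in row_RNAi2 minus row_RNAi1 (edgeR adjusted p = 3.28e-07). It overlaps CG43235 on the other strand.

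Secreted and membrane Nimrod genes moved in both directions. NimB5, which encodes a secreted Nimrod protein, had 12.0 and 9.82 CPM in row_RNAi1, 20.7, 14.1 and 10.5 CPM in row_RNAi2, and 27.6, 27.3 and 22.7 CPM in controls. It fell by 1.24 and 0.84 on the log2 scale in row_RNAi1 and row_RNAi2 (edgeR adjusted p = 6.77e-05 and 0.00287). Its locus overlaps He, whose counts were few. NimB1 rose by 0.99 in row_RNAi1 (edgeR adjusted p = 7.68e-06) and had 0.24 in row_RNAi2. NimB2 and the peptidoglycan receptor gene PGRP-LC rose by 0.38 and 0.60 in row_RNAi1 and had 0.14 and 0.30 in row_RNAi2. NimB1 and NimB2 overlap each other on opposite strands, at 12.6 and 315 CPM on average in controls, so their reads may not be separated. NimC4 (simu), a receptor for dying cells named after its value was seen, was higher by 1.06 in row_RNAi1 and had 0.21 in row_RNAi2. It overlaps nAChRalpha5 on the same strand.

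**Figure D4:**
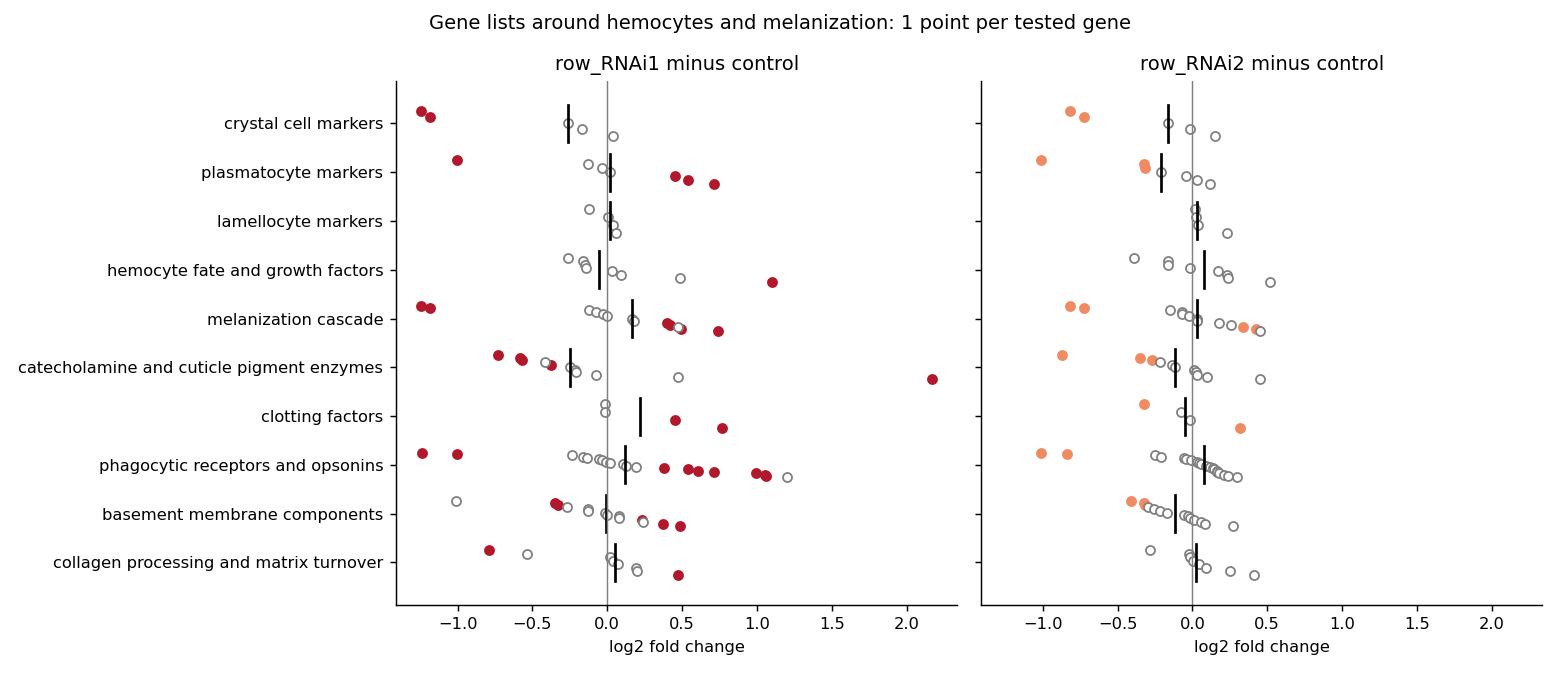
Log2 fold change of every tested gene on 10 lists around hemocytes and melanization, in row_RNAi1 (left) and row_RNAi2 (right) minus control. Filled points have an adjusted p under 0.05 over all tested genes, open points do not, and black lines are list medians. PPO1 and PPO2 are the leftmost filled points of the crystal cell and melanization lists in both panels, and most filled points right of 0 are in row_RNAi1.

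Clotting genes showed fon, the gene of the clot protein Fondue, higher in both lines. It had 519 and 444 CPM in row_RNAi1, 382, 359.7 and 315 CPM in row_RNAi2, and 280, 275 and 294 CPM in controls, with no overlap between knockdown and control libraries. The gene fon rose by 0.77 in row_RNAi1 (SE 0.09, edgeR adjusted p = 5.72e-06) and by 0.32 in row_RNAi2 (SE 0.08, edgeR adjusted p = 0.0184). The call in row_RNAi2 was lost without row_RNAi2 replicate 1 or 2 or control replicate 1 or 2. The clot-related genes Tig and Tg (transglutaminase) were within 0.08 of 0 on the log2 scale in both lines. The list thus held Hml and fon with opposite directions in row_RNAi2.

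The matrix genes Pxn and vkg had smaller log2 fold changes, within 0.32 of 0 in both lines. Pxn had 66.2 and 63.4 CPM in row_RNAi1, 50.4, 56.5 and 62.7 CPM in row_RNAi2, and 67.1, 71.4 and 73.9 CPM in controls. All knockdown libraries were below the controls, the row_RNAi1 libraries by a narrow margin. Pxn had -0.13 in row_RNAi1 (SE 0.09, edgeR adjusted p = 0.375) and fell by 0.32 in row_RNAi2 (SE 0.08, edgeR adjusted p = 0.0192). Its call in row_RNAi2 was lost without row_RNAi2 replicate 1 or 2, or without control replicate 2 or 3 (edgeR adjusted p = 0.0664, 0.0625, 0.0594 and 0.0927).

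The collagen gene vkg had 99.6 and 100.5 CPM in row_RNAi1, 78.4, 84.0 and 81.7 CPM in row_RNAi2, and 92.7, 95.4 and 96.2 CPM in controls. The 3 groups did not overlap, with row_RNAi1 on top and row_RNAi2 at the bottom, but the distances were small. The share of all tested genes with all 3 groups apart, as in vkg, Hml, PPO1 and PPO2, was not counted. Neither line was called against controls, with 0.08 (SE 0.08) in row_RNAi1 and -0.22 (SE 0.07, edgeR adjusted p = 0.0561) in row_RNAi2. In row_RNAi2 vkg was called lower by limma voom (-0.22, adjusted p = 0.0372) and by edgeR on genes of at least 5 CPM (-0.22, adjusted p = 0.0420). The direct difference between row_RNAi2 and row_RNAi1 was -0.30 (SE 0.08, edgeR adjusted p = 0.0156), and was not called without row_RNAi1 replicate 1 (edgeR adjusted p = 0.111) or 2 (0.125).

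The partner chain of vkg in type IV collagen, encoded by its head-to-head neighbour Cg25C (current symbol Col4a1), showed the same order of group means. Unlike for vkg, row_RNAi1 and control libraries overlapped. Cg25C stood at 149.2 ± 0.404 CPM in row_RNAi1 (SD, n = 2), 126 ± 3.70 CPM in row_RNAi2 (SD, n = 3) and 141 ± 7.04 CPM in controls (SD, n = 3), with log2 fold changes of 0.08 and -0.17 in row_RNAi1 and row_RNAi2, neither called. Counts of vkg over those of Cg25C were 0.67 ± 0.0025 in row_RNAi1 (SD, n = 2), 0.648 ± 0.0151 in row_RNAi2 (SD, n = 3) and 0.671 ± 0.0251 in controls (SD, n = 3). Of 14 tested basement membrane genes, 3 were called higher and 2 lower in row_RNAi1 and 3 lower in row_RNAi2, with list medians of -0.01 and -0.11. All tested genes were called higher in 11.2% and lower in 10.0% of cases in row_RNAi1, and lower in 5.34% in row_RNAi2, so the calls of this list in row_RNAi1 were near that background in the lower direction. Ppn, the papilin gene, had 62.2 ± 1.04 CPM in row_RNAi1 (SD, n = 2), 51.0 ± 3.37 CPM in row_RNAi2 (SD, n = 3) and 68.0 ± 2.10 CPM in controls (SD, n = 3), and fell by 0.41 in row_RNAi2 (edgeR adjusted p = 0.000962). The laminin genes LanA and LanB2 had -0.35 and 0.37 in row_RNAi1 and -0.29 and 0.06 in row_RNAi2. Without row_RNAi1 replicate 2 the basement membrane list held 1 call in row_RNAi1, and without row_RNAi1 replicate 1 or control replicate 1 or 2 it held 2. In row_RNAi2 only Ppn was called without row_RNAi2 replicate 1 or 2 or control replicate 3. Of 8 collagen-processing and matrix-turnover genes, the lysyl hydroxylase gene Plod rose by 0.48 and the lysyl oxidase gene lox2 (Loxl2) fell by 0.79 in row_RNAi1. These calls, 1 higher and 1 lower, were near the share of all tested genes in each direction. With 1 library left out, 1 to 2 genes of this list were called in row_RNAi1. In row_RNAi2 edgeR, DESeq2 and limma voom called 0 of this list, and 1 passed an unadjusted p of 0.05.

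Compared directly, the lines differed in 5 of 8 members, where 11.3% of tested genes were called between them, 4.98% higher and 6.33% lower in row_RNAi2. PPO1 and PPO2 were higher in row_RNAi2 than in row_RNAi1, by 0.46 (SE 0.12) and 0.42 (SE 0.10) on the log2 scale (edgeR adjusted p = 0.0156 and 0.0116). Both differences were not called without row_RNAi1 replicate 2 (0.28 and 0.29, edgeR adjusted p = 0.310 and 0.271), the library with the lowest level of both, and that of PPO2 was also lost without row_RNAi2 replicate 2 (0.40, edgeR adjusted p = 0.0503). Hml, Sr-CI and vkg were lower in row_RNAi2 than in row_RNAi1. The target row itself differed by 0.54 (SE 0.20) between row_RNAi2 and row_RNAi1 and was not called (edgeR adjusted p = 0.104).

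Factors that set hemocyte fate and number gave 1 call, that of 1 of 8 tested genes in row_RNAi1. This is near the share of all tested genes called higher in row_RNAi1, 11.2%. Of 8 tested genes, edgeR called 0 in row_RNAi2, as did DESeq2 and limma voom, and 0 passed an unadjusted p of 0.05. In row_RNAi1 only Pvf2 was called, a ligand of the PDGF and VEGF receptor homologue Pvr, named after its value was seen. It had 1.10 on the log2 scale (edgeR adjusted p = 0.0332), and DESeq2 did not call it. Nor did edgeR without row_RNAi1 replicate 1 or 2 or control replicate 2 or 3. Pvf2 had 48 and 50 counts in row_RNAi1, 6, 12 and 11 in row_RNAi2, and 16, 12 and 7 in controls. The GATA factor gene srp, needed for blood cell formation, stood at 28.8, 28.8 and 31.8 CPM on average in row_RNAi1, row_RNAi2 and controls, and Pvr at 17.9, 18.8 and 16.7 CPM.

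The genes whose levels followed each member most closely over the 8 libraries were found by the root mean square difference of mean-centred log2 CPM, among 7437 other tested genes of at least 5 CPM. PPO1 was closest to PPO2 (0.081 log2 units), CG2982 (NO66) and CG12262 (Mcad), and PPO2 was closest to CG2982 (0.071), CG12262 and PPO1. Hml lay closest to Karl (0.079), Myc and Cbs, and vkg to CG5149 (0.038), Cg25C and Ssu72. Sr-CI lay closest to CG17259 (SerRS), Gtp-bp and mbf1, NimC1 to Adgf-A, CG30273 and IP3K1, Pxn to CG11655, d4 and Ppn, and eater to mdy, CG30394 and pall. Members with a small spread, such as vkg and eater, are close to many genes by this measure.

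Several neighbours of member genes were called where the member was not, or in the other direction. Others were not called, or went with the member. Of all tested genes, 21.2% were called in row_RNAi1 and 10.8% in row_RNAi2. Neighbours were read from the Ensembl annotation of assembly BDGP6, a later build than the dm3 of the counts, so no coordinates are given. CG8745, beside Hml, was at 54.5, 83.4 and 421 CPM on average in row_RNAi1, row_RNAi2 and controls, and fell by 2.95 and 2.33 on the log2 scale in the lines (edgeR adjusted p = 2.11e-11 and 1.66e-10). Both genes that flank eater, CG14259 and CG17189 (Jhbp11), fell too, by 0.63 and 0.90 in row_RNAi1 and by 0.50 and 0.80 in row_RNAi2, while eater was not called. Pxn overlaps CG16986 on the other strand, and CG16986 rose by 1.26 in row_RNAi1 and by 0.58 in row_RNAi2, so reads of the 2 genes may not be separated. Ance-4, beside PPO2, rose by 0.48 in row_RNAi1 and had 0.24 in row_RNAi2, opposite in sign to PPO2. PPO1 overlaps Elk on the other strand, which had 299 counts over all libraries against 6743 for PPO1. Elk was called in neither line, nor were CG13743 beside PPO2, CG42245 beside Pxn, and CG3887 and Cg25C beside vkg. Cyp28a5, beside NimC1, rose by 0.35 in row_RNAi1 (edgeR adjusted p = 0.00213), as NimC1 did, and was not called in row_RNAi2. CG16985, beside Pxn, rose by 0.57 in row_RNAi1 and by 0.36 in row_RNAi2. In row_RNAi2 CG8745 fell as Hml did.

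Markers of some other head tissues were also called, where 21.2% of all tested genes were called in row_RNAi1 and 10.8% in row_RNAi2. Fat body markers were called in 5 of 6 tested genes in row_RNAi1 (4 higher, 1 lower) and 4 of 6 in row_RNAi2 (3 higher, 1 lower). Their summed level was 5072 to 6402 CPM in row_RNAi1, 8385 to 10565 CPM in row_RNAi2 and 3898 to 4742 CPM in controls. Of this sum, Lsp2 alone had 1566 and 849 CPM in row_RNAi1, 4220, 6258 and 5898 CPM in row_RNAi2, and 896, 922 and 1683 CPM in controls. The higher sum in row_RNAi2 than in row_RNAi1 thus came from Lsp2. Fat body also makes vkg, Tep2, Spn27A and fon, and the part of this tissue in their levels was not tested. Antennal markers were called lower in 3 of 6 in row_RNAi1 and 4 of 6 in row_RNAi2, with summed levels of 18.9 and 47.0 CPM in row_RNAi1, 13.6 to 16.4 CPM in row_RNAi2 and 29.9 to 69.5 CPM in controls, so libraries of 1 group differed among themselves. In row_RNAi1, glial markers were lower in 2 of 6 and muscle markers higher in 2 of 4. With 1 library left out, the counts in row_RNAi1 ran from 0 to 3 for antennal, 1 to 3 for glial and 0 to 4 for muscle markers. Summed levels of muscle markers were 2532 to 2623 CPM in row_RNAi1, 2213 to 2444 CPM in row_RNAi2 and 2117 to 2270 CPM in controls. Nephrocyte and heart markers summed to 43.9 to 44.6 CPM in row_RNAi1, 42.4 to 48.9 CPM in row_RNAi2 and 42.2 to 49.4 CPM in controls. In the nephrocyte and heart list edgeR, DESeq2 and limma voom called 0 of 4 in both lines, with 1 at an unadjusted p under 0.05 in row_RNAi1 and 0 in row_RNAi2. Of 5 photoreceptor markers 1, norpA, was called lower in row_RNAi1, and 0 were called in row_RNAi2 by edgeR, DESeq2 or limma voom, with 0 at an unadjusted p under 0.05.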

How the data were processed

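Per the labels' protocols, RNA of fly heads was made into 3′ RNA-seq libraries by RNAtag-Seq. The authors deposited raw counts of reads per gene symbol, 1 column for each of 8 libraries. The submitters' processing notes name STAR and genome build dm3. For versions, counting program, annotation, strand use and molecular identifiers the entry is "not given in the sources used here". Groups follow the genotype labels. The members and all gene lists were chosen with earlier results of these data known.

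In R 4.3.3, edgeR 4.0.16 was used with TMM scaling (factors 0.921 to 1.09), filterByExpr and a quasi-likelihood 3-group model over all 8 libraries. F tests were adjusted by Benjamini-Hochberg over 9442 genes, with a threshold of 0.05. The fit was tested on simulated data. SE values derive from the F statistic. Of 132 listed symbols, 129 matched exactly, 1 through a synonym and 2 not (Sr-CII and Sr-CIII). Named genes are row, all members, up to 6 called genes per list by smallest p over the mean of both lines, and the 3 closest genes per member. Log2 CPM for that closeness used a prior count of 2. Alternatives were DESeq2 1.42.0, limma 3.58.1 voom, RLE factors, other filters, pairwise fits, a 1-group model, a replicate block and leaving out each library. Replicates of a group all differed beyond counting noise (chi-square per degree of freedom 6.23 to 10.8). No sequences were used here.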

Additional observations from a re-analysis of the deposited data

Results flagged for a closer look

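Of the 8 members, 5 differed between the RNAi lines when the lines were compared directly in the edgeR quasi-likelihood fit, with a Benjamini-Hochberg adjusted p under 0.05. By the same rule 11.3% of all tested genes were called, 4.98% higher and 6.33% lower in row_RNAi2. Without row_RNAi1 replicate 2 only 2 members were called, as PPO1, PPO2 and vkg lost their calls. As row_RNAi2 minus row_RNAi1 on the log2 scale, Hml had -0.77, Sr-CI had -0.51, vkg had -0.30, PPO1 had 0.46 and PPO2 had 0.42. Total counts were 6230666 to 11212213 in row_RNAi2 and 17952015 to 18046699 in row_RNAi1, and the part of depth in these differences was not tested.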

How the results depend on the processing

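For the 8 members in 4 comparisons, 435 of 480 re-computed log2 fold changes kept their direction and their side of the threshold. PPO1, PPO2 and Hml did so in each line against controls under all 15 alternatives, as did row, whose mean change ran from -1.30 to -1.05. The number of members called over the mean of both lines was 4. It was 2 with the 5 knockdown libraries as 1 group, where all genes called fell to 834, against 1680, and 2 to 4 when 1 library was left out, where Pxn and Sr-CI lost their calls. Between the lines 2 to 6 members were called with 1 library left out, against 5. Without row_RNAi1 replicate 1 or 2, 1226 or 1275 genes were called in row_RNAi1, against 2001, and 555 between the lines in both cases, against 1068; fewer samples remained. Values near 0 changed sign when 1 library was left out: eater in row_RNAi1 (-0.16 to 0.038), NimC1 in row_RNAi2 (-0.038 to 0.32) and Sr-CI in row_RNAi2 (-0.056 to 0.16), none of them called. The cause was not tested. With the replicate number as a block, 5 members were called in row_RNAi1, 4 in row_RNAi2, 3 over the mean and 5 between the lines; Pxn was the one lost over the mean (-0.20, edgeR adjusted p = 0.0675), and no other member call changed. Same-numbered libraries of different groups did not deviate together (correlations -0.13 to 0.0563 across genes), so the numbers were not taken as pairs. Of 34 named genes from the lists that are not members, 20 lost their call over the mean of both lines in at least 1 alternative, 18 of them in the 1-group model. Low counts limit NimC1, eater, NimC2, lz, y and Pvf2.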
